A study of Mus musculus with 6 samples.

Results

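The 9 transcripts described here encode enzymes of the mitochondrial tricarboxylic acid cycle: citrate synthase (Cs), the 3 subunits of NAD-dependent isocitrate dehydrogenase (Idh3a, Idh3b and Idh3g), the E1 subunit of the 2-oxoglutarate dehydrogenase complex (Ogdh), the alpha subunit and the ADP-specific beta subunit of succinyl-CoA ligase (Suclg1 and Sucla2), fumarate hydratase (Fh1) and mitochondrial malate dehydrogenase (Mdh2). They were chosen by gene symbol, and all 9 were among the 24525 gene rows of the deposited table. RNA-seq libraries were made from total RNA of whole mouse hearts at 3 to 6 months of age, 3 labelled double knockout (DKO; replicates 7, 8 and 9) and 3 labelled wild type (WT; replicates 4, 5 and 6). Per the labels, DKO mice carried Mbnl1-/-, Mbnl2cond/cond and Myh6-Cre+/-. Mbnl1 was thus disrupted in every cell, and Mbnl2 only where the Myh6 promoter drives Cre, in cardiomyocytes, so the other cells of a DKO heart keep Mbnl2. The labels give no more on WT than its name, and do not say whether each library is 1 animal. DKO replicate 7 is WT in its genotype tag but DKO in its title and source name, and was placed in DKO. Expression is in TPM, a transcript level per length and per library total that allows levels of different genes to be compared.

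In the tricarboxylic acid cycle, acetyl-CoA from fatty acids, pyruvate and ketone bodies is joined to oxaloacetate and oxidised to carbon dioxide, and the NADH and FADH2 formed feed the respiratory chain. The heart depends on this route for most of its ATP, and its cardiomyocytes are packed with mitochondria. The steps catalysed by citrate synthase, isocitrate dehydrogenase and 2-oxoglutarate dehydrogenase are the classical points of control, the dehydrogenases being activated by calcium and inhibited by NADH. MBNL1 and MBNL2 are RNA-binding proteins that control alternative splicing and are sequestered by expanded CUG repeats in myotonic dystrophy.

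In DKO hearts 3 of the 9 enzyme transcripts fell, Ogdh, Sucla2 and Idh3b, to between 65.3% and 78.4% of their WT means, and 0 rose (limma, Benjamini-Hochberg (BH) adjusted p under 0.05 over the 14541 genes tested). Of all genes tested, 4.22% were called lower and 6.51% higher, 10.7% in all. At an unadjusted p under 0.05 (limma) 5 members were lower and 0 higher, against 11.0% of all genes tested lower and 16.0% higher. The same shares are the background of the other counts at an unadjusted p. All 9 members passed the expression filter of 1 TPM in at least 3 libraries. The difference of means of log2(TPM + 1), DKO minus WT and called the log2 difference here, was negative for 8 of the 9, as it was for 45.3% of all genes tested. Its median over the 9 was -0.24, against 0.03 over all genes tested, and it ran from -0.62 for Ogdh to 0.14 for Mdh2. For 4 members, the 3 that fell and Suclg1, the DKO values lay wholly below the WT values, which was so for 13.8% of all genes tested. The TPM of the 9 enzymes summed to 5452, 5921 and 6071 in DKO 7, 8 and 9 and to 6732, 6922 and 6287 in WT 4, 5 and 6, so that every DKO sum was lower than every WT sum.

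**Figure D1:**
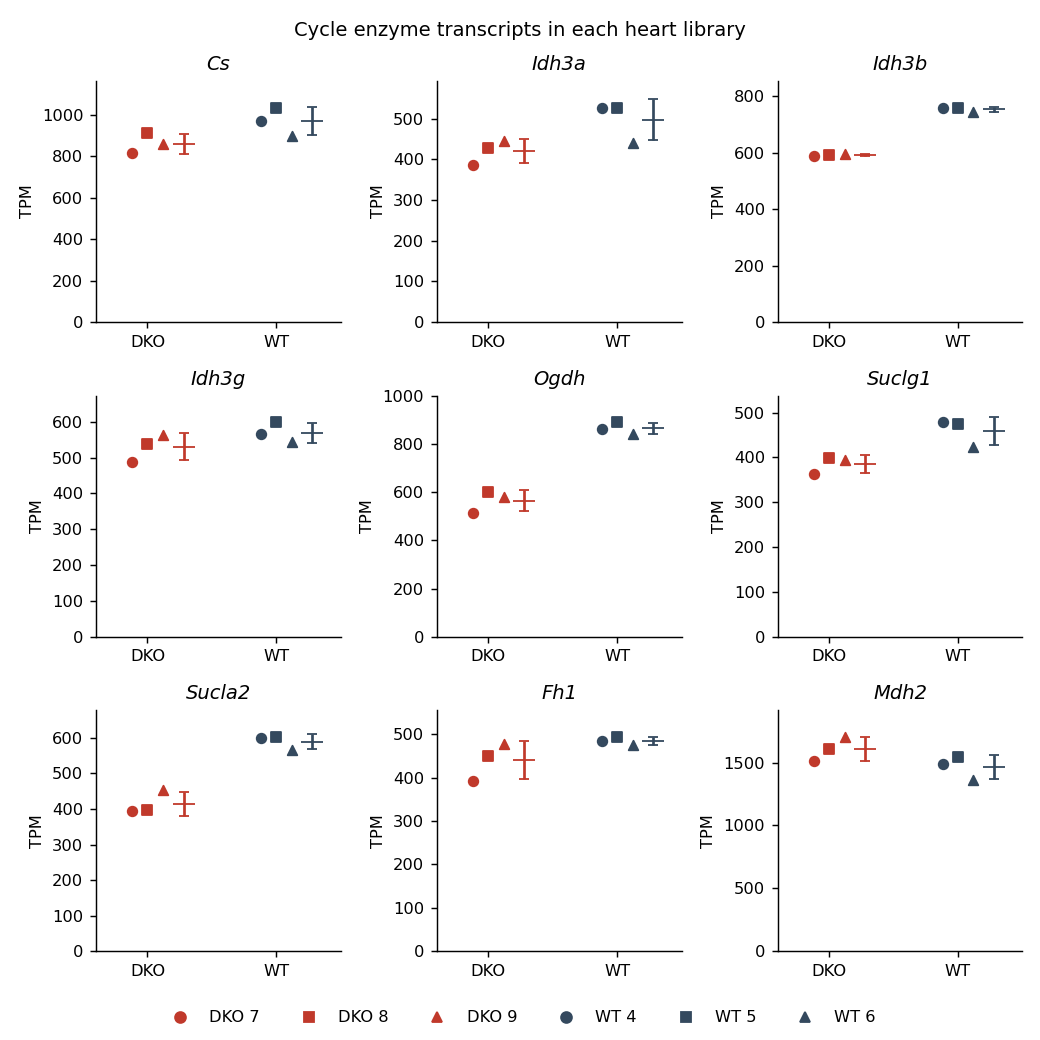
TPM of each of the 9 enzyme transcripts in every library, DKO left and WT right, with 1 marker per library and the mean with SD (n = 3) beside them; every axis starts at 0. Ogdh, Sucla2, Idh3b and Suclg1 have DKO points wholly below the WT points, while Mdh2 has its highest point, 1703 TPM, in DKO 9.

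Ogdh (chromosome 11, 6291597 to 6359094) encodes the thiamine-dependent subunit that decarboxylates 2-oxoglutarate, and it differed most among the 9 members. It had 515, 599 and 579.97 TPM in DKO 7, 8 and 9, against 862, 889 and 842 TPM in WT 4, 5 and 6. The highest DKO library stood well below the lowest WT library. The DKO mean was 565 ± 44.3 and the WT mean 864 ± 23.9 TPM (SD, n = 3 each), a log2 difference of -0.62 (limma, SE 0.07, BH adjusted p = 0.00622), or 65.3% of WT.

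Sucla2 (chromosome 14, 73552786 to 73596144) encodes the beta subunit that makes succinyl-CoA ligase form ATP, the form that predominates in muscle and brain. It had 393, 397 and 454 TPM in DKO 7, 8 and 9, against 599, 602 and 564 TPM in WT 4, 5 and 6. The groups did not overlap, and DKO 9 lay nearest to WT. Means were 415 ± 34.3 TPM in DKO and 588 ± 20.9 TPM in WT (SD, n = 3 each), a log2 difference of -0.51 (limma, SE 0.07, BH adjusted p = 0.0107). Suclg1 (chromosome 6, 73248505 to 73276907), the alpha subunit that pairs with either beta subunit, had 362, 399 and 395 TPM in DKO against 478, 474 and 422 TPM in WT. Its log2 difference of -0.25 (SE 0.07; 95% interval -0.42 to -0.07) missed the threshold (limma, BH adjusted p = 0.0807) but passed with median-ratio scaling (0.0438) and with quantile normalization (0.0446).

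Idh3b (chromosome 2, 130279309 to 130284451) encodes the beta subunit of NAD-dependent isocitrate dehydrogenase, an enzyme built of alpha, beta and gamma subunits in which alpha carries the catalytic activity. It had 587, 591 and 596 TPM in DKO 7, 8 and 9, against 758, 759 and 744 TPM in WT 4, 5 and 6. The groups did not overlap, with means of 591 ± 4.42 TPM in DKO and 754 ± 8.16 TPM in WT (SD, n = 3 each). The log2 difference was -0.35 (limma, SE 0.05, BH adjusted p = 0.00998), or 78.4% of WT. The within-group SD of Idh3b, 0.0134 on the log2(TPM + 1) scale, was the smallest of the 9 members and smaller than in all but 3 of the 14541 genes tested. Over all genes tested the median of this SD was 0.173, and over the other members it ran from 0.0863 for Ogdh to 0.128 for Idh3a.

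The calls of Ogdh, Sucla2 and Idh3b held in each of the 6 fits that left out 1 library, with adjusted p (limma, BH) up to 0.0244, 0.0445 and 0.041. The groups differed in sex-linked transcripts: Xist had 152 and 174 TPM in DKO 7 and DKO 8 and stayed under 1 TPM in DKO 9 and the WT libraries, which had Y-linked Ddx3y. DKO 9, without Xist like WT, lay below every WT library for 5 of the 9 members, against 8 in DKO 7 and 7 in DKO 8. Those 5 include Ogdh, Sucla2 and Idh3b, whose groups do not overlap. With a term for Xist the log2 differences were -0.57 for Ogdh, -0.37 for Sucla2 and -0.34 for Idh3b, and none passed (limma, BH adjusted p = 0.0938, 0.128 and 0.133). As no WT library had Xist, these differences are those of DKO 9 alone from the WT mean. With replicate 7 counted as WT none of the 3 passed either (limma, BH adjusted p = 0.582, 0.562 and 0.527).

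The promoters of the 3 transcripts that fell and of Mdh2, the member with a positive difference, are shown so that the sequence upstream of members that differed can be read side by side. Each is RefSeq sequence of GRCm38.p6, read 5′ to 3′ on the strand of the gene, from 250 bases before to 50 bases after an annotated start. Capitals mark matches, on either strand, to GGGCGG (SP1), CCAAT (NF-Y), CCGGAAG (ETS factors such as GABPA), the NRF1 motif, CACGTG (E-box), AANATGGCG (YY1) and AAGGTCA or TCAAGGTCA (oestrogen-related receptors, nuclear receptors that act on mitochondrial genes in heart). Every TCAAGGTCA site also holds AAGGTCA.
Ogdh, chr11:6291347-6291646, plus strand: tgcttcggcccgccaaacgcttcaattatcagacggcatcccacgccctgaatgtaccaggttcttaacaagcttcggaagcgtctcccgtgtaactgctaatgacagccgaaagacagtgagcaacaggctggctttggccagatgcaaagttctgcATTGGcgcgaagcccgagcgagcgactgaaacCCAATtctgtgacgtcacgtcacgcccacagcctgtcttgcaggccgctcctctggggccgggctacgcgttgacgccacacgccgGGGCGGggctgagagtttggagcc
Sucla2, chr14:73552536-73552835, plus strand: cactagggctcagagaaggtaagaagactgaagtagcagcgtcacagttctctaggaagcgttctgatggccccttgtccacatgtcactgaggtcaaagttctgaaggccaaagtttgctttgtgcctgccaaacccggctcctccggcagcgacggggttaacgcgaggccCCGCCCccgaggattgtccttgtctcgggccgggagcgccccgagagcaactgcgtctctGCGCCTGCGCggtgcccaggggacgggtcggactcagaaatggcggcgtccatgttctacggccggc
Idh3b, chr2:130284402-130284701, minus strand: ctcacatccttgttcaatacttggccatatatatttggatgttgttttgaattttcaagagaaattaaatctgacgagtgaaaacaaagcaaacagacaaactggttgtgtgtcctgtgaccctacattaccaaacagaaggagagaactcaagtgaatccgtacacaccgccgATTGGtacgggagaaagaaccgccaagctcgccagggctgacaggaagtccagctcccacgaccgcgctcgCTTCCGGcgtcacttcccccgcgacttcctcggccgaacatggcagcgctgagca
Mdh2, chr5:135778399-135778698, plus strand: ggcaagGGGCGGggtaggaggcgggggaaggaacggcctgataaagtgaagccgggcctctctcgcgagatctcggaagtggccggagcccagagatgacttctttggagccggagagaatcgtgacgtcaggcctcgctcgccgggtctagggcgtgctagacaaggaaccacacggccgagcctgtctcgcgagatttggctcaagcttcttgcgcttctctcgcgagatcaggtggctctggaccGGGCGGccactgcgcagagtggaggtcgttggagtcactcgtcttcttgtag

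Windows were present for 8 of the 9 members, Idh3a being the other one, and there were 13 windows in all, since Ogdh had 6 starts, some with overlapping windows, of which the one at the gene's annotated start is printed. Overlapping Ogdh windows share sites, so counts of windows hold some sites more than once. GGGCGG was found in 8 of the 13 windows, of Cs, Fh1, Mdh2, Ogdh and Sucla2 (5 of the 8 members), against 35.7% of all 32851 promoter windows. CCAAT was found in 9 of the 13, of Cs, Fh1, Idh3b and Ogdh (4 of the 8 members), against 37.4% of all windows. CCGGAAG was found in 2, of Idh3b and Idh3g, against 8.86% of all windows, and the NRF1 motif in 1, of Sucla2, against 4.6%. The element AAGGTCA was found in 1, an Ogdh window at a later start (chr11:6291920-6292219), against 4.72% of all windows, and TCAAGGTCA in 0 of the 13, against 0.423%. CACGTG was found in 3 windows, all at later Ogdh starts (1 of the 8 members), against 7.15% of all windows. AANATGGCG was found in 3, of Idh3g and of later Ogdh starts (2 of the 8 members), against 2.38%. No motif of those searched was held by Ogdh, Sucla2 and Idh3b together. Suclg1 had no match to any of these letters in its window.

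The other subunits of isocitrate dehydrogenase had smaller differences than Idh3b. The catalytic subunit Idh3a (chromosome 9, 54586511 to 54604662) had 387, 427 and 444 TPM in DKO 7, 8 and 9 against 526, 526 and 439 TPM in WT 4, 5 and 6. WT 6 lay among the DKO values, and the log2 difference of -0.24 (95% interval -0.47 to -0.02) did not pass (limma, BH adjusted p = 0.153). The regulatory gamma subunit Idh3g (chromosome X, 73778963 to 73786897) had 489, 537 and 563 TPM in DKO against 565, 598 and 542 TPM in WT. The groups overlapped, and the log2 difference was -0.10 (95% interval -0.28 to 0.07; limma, BH adjusted p = 0.431). DKO 9, the DKO library without Xist, had the highest Idh3g value of the 3 DKO libraries.

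Cs (chromosome 10, 128337727 to 128362482), which joins acetyl-CoA to oxaloacetate and whose activity is a common measure of mitochondrial content, had 814, 911 and 859 TPM in DKO 7, 8 and 9. In WT 4, 5 and 6 it had 973, 1034 and 900.1 TPM, and the groups overlapped. Its log2 difference was -0.17 (95% interval -0.35 to 0.01; limma, BH adjusted p = 0.209). Fh1 (chromosome 1, 175601378 to 175625635), which hydrates fumarate to malate, had 391, 451 and 478 TPM in DKO and 484, 493 and 474 TPM in WT. Its log2 difference was -0.14 (95% interval -0.34 to 0.05; limma, BH adjusted p = 0.325). DKO 7 was the lowest library for Fh1, and DKO 9 lay inside the WT range.

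Mdh2 (chromosome 5, 135778649 to 135790386), which oxidises malate to oxaloacetate and also serves the malate-aspartate shuttle, was the member with a positive difference. It had 1514, 1609.9 and 1703 TPM in DKO 7, 8 and 9 and 1487, 1545 and 1358 TPM in WT 4, 5 and 6. The groups overlapped at DKO 7, and the log2 difference of 0.14 (95% interval -0.04 to 0.32) did not pass (limma, BH adjusted p = 0.306). By exact permutation of the 6 libraries (two-sided), p was 0.1 for the members whose groups did not overlap, which is as small as 3 against 3 can give, and 0.2 for the other members.

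**Figure D2:**
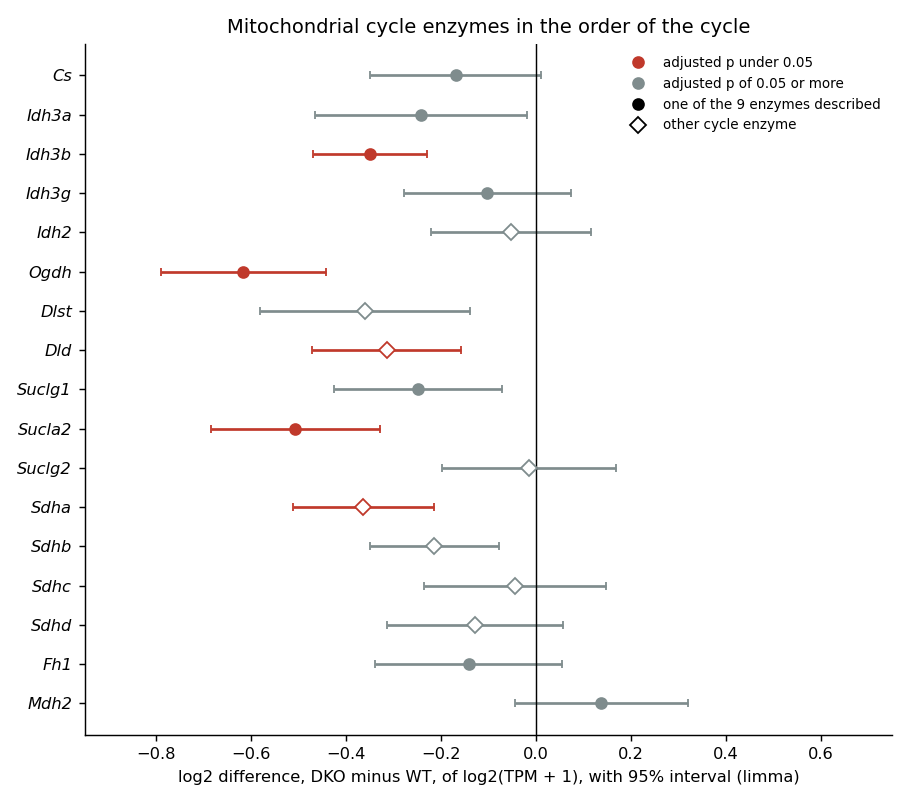
Log2 difference, DKO minus WT, with its 95% interval (limma) for mitochondrial cycle enzymes in the order of the cycle from Cs at the top to Mdh2; filled circles are the 9 members, open diamonds other cycle enzymes, and red marks an adjusted p under 0.05. Ogdh (-0.62) and Sucla2 (-0.51) lie farthest left, and Mdh2 (0.14) is the point farthest to the right of 0.

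All 9 transcripts were abundant, ranking between 72 (Mdh2) and 329 (Suclg1) of the 24525 rows by mean TPM over the 6 libraries. In DKO the order of levels per transcript length was Mdh2, Cs, Idh3b, Ogdh, Idh3g, Fh1, Idh3a, Sucla2 and Suclg1, with 4.18 times as much Mdh2 as Suclg1. In WT it was Mdh2, Cs, Ogdh, Idh3b, Sucla2, Idh3g, Idh3a, Fh1 and Suclg1, with 3.19 times as much Mdh2 as Suclg1. Mdh2 and Cs led in both groups without overlap with the next enzyme. Ogdh stood above Idh3b in each of the 3 WT libraries, whereas in DKO the ranges of Idh3b and Ogdh overlapped and Idh3b was higher in 2 of the 3 libraries. Also overlapping were the neighbours Ogdh and Idh3g, Fh1 and Idh3a, Idh3a and Sucla2, and Sucla2 and Suclg1 in DKO, and Sucla2 and Idh3g, Idh3a and Fh1, and Fh1 and Suclg1 in WT. Sucla2 exceeded Idh3a in all WT libraries, while their ranges overlapped in DKO.

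Members of 1 enzyme were also set against each other within a library, which removes the library's scaling. The ratio of Sucla2 to Suclg1 was 1.08, 0.995 and 1.15 in DKO 7, 8 and 9 and 1.25, 1.27 and 1.34 in WT 4, 5 and 6. Against Suclg2, the beta subunit that makes the ligase form GTP, Sucla2 stood at 3.54, 3.07 and 3.95 in DKO and 5.15, 5.10 and 4.53 in WT. Every DKO library thus had less Sucla2 per unit of its partner Suclg1, and per unit of the other beta subunit Suclg2, than every WT library. Suclg2 itself had 111, 129 and 115 TPM in DKO and 116, 118 and 124 TPM in WT, a log2 difference of -0.02 (limma, SE 0.08, BH adjusted p = 0.928).

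The ratio of Idh3b to Idh3g was 1.20, 1.10 and 1.06 in DKO 7, 8 and 9 and 1.34, 1.27 and 1.37 in WT 4, 5 and 6, without overlap. Idh3g to Idh3a was 1.26, 1.26 and 1.27 in DKO and 1.07, 1.14 and 1.23 in WT, higher in every DKO library. Idh3b to Idh3a overlapped, with 1.34 to 1.52 in DKO and 1.44 to 1.69 in WT. Ogdh was lower in every DKO library relative to both partners in its complex: its ratio to Dlst, the E2 succinyltransferase, was 1.66, 1.63 and 1.54 in DKO and 1.81, 1.98 and 2.00 in WT. Its ratio to Dld, the E3 dehydrogenase shared with the pyruvate complex, was 1.78, 2.00 and 1.81 in DKO and 2.24, 2.29 and 2.35 in WT. Mdh2 to Cs was 1.86, 1.77 and 1.98 in DKO and 1.53, 1.49 and 1.51 in WT. Each of these ratios without overlap had p = 0.1 in the exact two-sided permutation test, the smallest possible, and an adjusted p of 0.2 over the 14 ratios compared, so none passed. Ratios that overlapped included Idh3b to Idh3a, Suclg2 to Suclg1, Ogdh to Ogdhl, Idh2 to Idh3a, Mdh2 to Mdh1 and Fh1 to Cs.

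**Figure D3:**
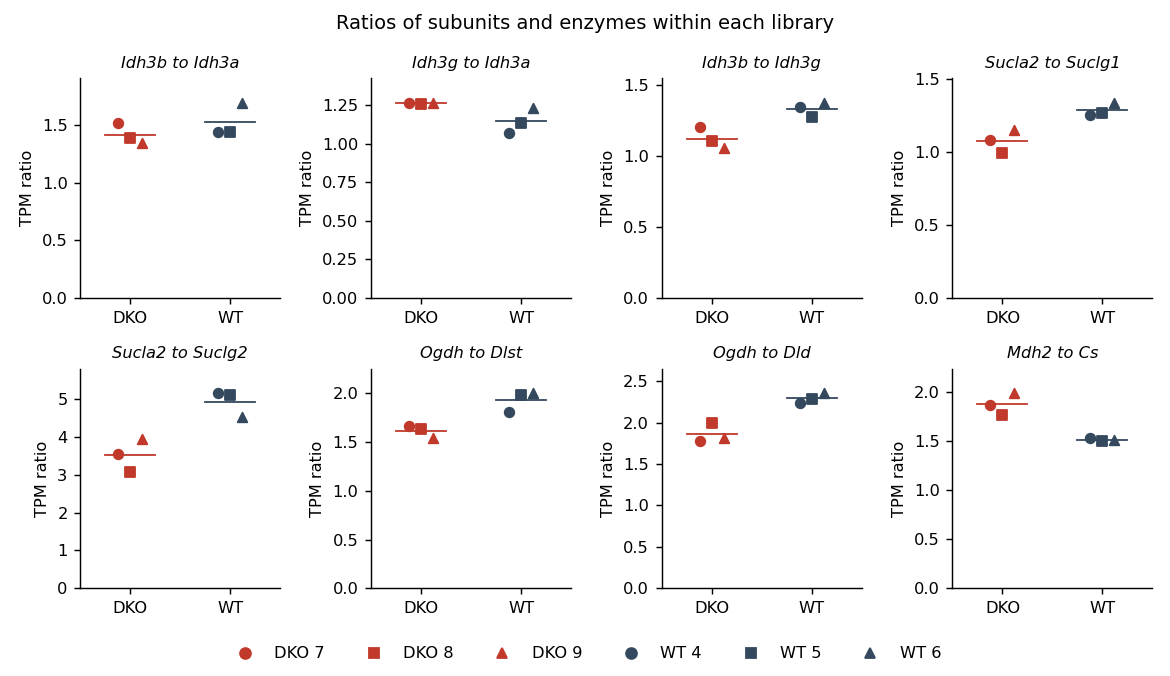
TPM ratios of subunits and enzymes within each library for 8 of the 14 ratios compared, DKO left and WT right, with 1 marker per library and a line at the group mean; every axis starts at 0. The ratio of Sucla2 to Suclg2 is 3.07 to 3.95 in DKO and 4.53 to 5.15 in WT, and that of Mdh2 to Cs is 1.77 to 1.98 in DKO and 1.49 to 1.53 in WT.

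Relative to the WT mean, the mean log2 value of the 9 members was -0.34 in DKO 7, -0.22 in DKO 8 and -0.18 in DKO 9. DKO 7 was thus farthest from WT, with 8 members below every WT library, against 7 in DKO 8 and 5 in DKO 9. Within WT the same mean was 0.02, 0.06 and -0.08 in replicates 4, 5 and 6, and WT 6 had the lowest WT value of each of the 9 members. Among the genes nearest to this profile, by the root mean square difference over the 6 libraries among 9008 genes averaging at least 10 TPM, were Slc25a3, the mitochondrial phosphate carrier (0.0122), Vdac1, the outer membrane anion channel (0.0206), the zinc transporter Slc30a9 (0.0267) and Msl2 (0.0275). Of the members themselves Suclg1 lay nearest to the mean of the 9 (0.0275), and Mdh2 (0.274) and Ogdh (0.262) farthest from it.

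Of the 14 other cycle enzymes and cytosolic counterparts, 3 fell and 0 rose (limma; 6 and 0 at an unadjusted p under 0.05), with a median log2 difference of -0.14. Sdha, the flavoprotein subunit of succinate dehydrogenase, averaged 765 ± 27.6 TPM in DKO and 985 ± 45.3 TPM in WT (limma, BH adjusted p = 0.0169). Dld had 303 ± 15.6 TPM in DKO and 377 ± 17.1 TPM in WT (limma, BH adjusted p = 0.0305), and the cytosolic NADP-dependent Idh1 37.4 ± 5.53 TPM in DKO and 61.2 ± 8.31 TPM in WT (limma, BH adjusted p = 0.029). The calls of Sdha and Idh1 were lost without DKO 7 (limma, BH adjusted p = 0.0518 and 0.0704), WT 4 (0.0528 and 0.0841) or WT 5 (0.0507 and 0.0798), that of Sdha also without DKO 9 (0.0533) and that of Idh1 without DKO 8 (0.0803). The Dld call was lost without DKO 7 (limma, BH adjusted p = 0.0811), DKO 8 (0.0946), WT 4 (0.0898), WT 5 (0.0842) or WT 6 (0.0559). Without a trend in the variance model all 3 calls were lost (limma, BH adjusted p = 0.0585 for Sdha, 0.0526 for Idh1 and 0.0887 for Dld), as they were with a term for Xist (0.173, 0.293 and 0.305) and with replicate 7 counted as WT (0.582, 0.671 and 0.627). Dlst had 351 ± 36.5 TPM in DKO and 449.6 ± 27.8 TPM in WT, and missed the threshold (limma, BH adjusted p = 0.055) except with median-ratio scaling (0.0228), with quantile normalization (0.0408) or without short, structural and haemoglobin RNA (0.0261).

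The others did not pass. The iron-sulphur subunit Sdhb of succinate dehydrogenase had a log2 difference of -0.21 (limma, BH adjusted p = 0.0602). The membrane subunits Sdhc and Sdhd had -0.04 and -0.13, and Suclg2 -0.02. Among forms outside the NAD-dependent route, the mitochondrial NADP-dependent Idh2 had 1796 ± 24.3 TPM in DKO and 1866 ± 136 TPM in WT. Cytosolic Mdh1 had 1536 ± 32.3 TPM in DKO and 1499 ± 71.8 TPM in WT, and cytosolic Aco1 a log2 difference of -0.11. Dhtkd1, an E1 enzyme of lysine breakdown, had -0.16, and Ogdhl, a paralog of Ogdh, 1.84 (SE 1.32), each with an adjusted p above the threshold.

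Upstream of citrate synthase, 4 of 13 genes of pyruvate entry fell and 0 rose (limma; 8 and 1 at an unadjusted p under 0.05), with a median log2 difference of -0.36. Pdhx, which binds Dld into the pyruvate dehydrogenase complex, had 81.2 ± 6.92 TPM in DKO and 122 ± 8.52 TPM in WT (limma, BH adjusted p = 0.0122), and its call held without any 1 library. It was lost with a term for Xist (limma, BH adjusted p = 0.160), with the libraries that have Y-linked transcripts (0.179) and with replicate 7 counted as WT (0.612). Pdpr, a regulatory subunit of pyruvate dehydrogenase phosphatase, had 65.4 ± 9.06 TPM in DKO and 101 ± 9.09 TPM in WT (limma, BH adjusted p = 0.0233). The mitochondrial pyruvate carrier subunits Mpc1 (698 ± 61.9 TPM in DKO, 896 ± 36.3 TPM in WT) and Mpc2 (492 ± 50.5 TPM in DKO, 652 ± 40.1 TPM in WT) had adjusted p = 0.0339 and 0.0348 (limma, BH). The Pdpr call was lost without DKO 8 (limma, BH adjusted p = 0.0685), WT 4 (0.0597), WT 5 (0.0655) or WT 6 (0.0548). Those of Mpc1 and Mpc2 were lost without DKO 7 (limma, BH adjusted p = 0.0922 and 0.0875), DKO 8 (0.0943 and 0.104), WT 4 (0.0951 and 0.0956), WT 5 (0.0832 and 0.0768) or WT 6 (0.072 and 0.0738).

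Of 23 tested genes of anaplerosis and export, which supply or withdraw cycle intermediates, 8 fell and 0 rose (limma; 12 and 1 at an unadjusted p under 0.05), with a median log2 difference of -0.23. Gls2 was under 1 TPM and not tested. Gpt, alanine aminotransferase, had 18.2 ± 2.47 TPM in DKO and 47.4 ± 9.57 TPM in WT, a log2 difference of -1.32 (limma, BH adjusted p = 0.00671). The glutamate carrier Slc25a22 had 30.7 ± 1.48 TPM in DKO and 44.1 ± 2.14 TPM in WT (limma, BH adjusted p = 0.0129), and the 2-oxoglutarate carrier Slc25a11 339.7 ± 14.3 TPM in DKO and 438 ± 11.1 TPM in WT (0.0135). Mut, methylmalonyl-CoA mutase, which yields succinyl-CoA from propionate, had 62.2 ± 7.40 TPM in DKO and 94.3 ± 7.01 TPM in WT (limma, BH adjusted p = 0.0184). The call of Slc25a22 was lost without WT 6 (limma, BH adjusted p = 0.0524), that of Slc25a11 without DKO 8 (0.0522) and that of Mut without DKO 8 (0.0655), WT 4 (0.0596) or WT 5 (0.0574). Of 8 genes for lipoylation and complex II assembly 0 rose and 1 fell (limma; 1 and 2 at an unadjusted p under 0.05). The 1 that fell was Lias, the lipoate synthase, with 24.2 ± 1.84 TPM in DKO and 31.9 ± 1.59 TPM in WT (limma, BH adjusted p = 0.044). The Lias call was lost in each fit without 1 library, with adjusted p (limma, BH) from 0.0711 without DKO 9 to 0.126 without WT 4 (0.0989 without DKO 7, 0.106 without DKO 8 and without WT 5, 0.0867 without WT 6). Next by p in that list were Sdhaf1 (log2 difference 0.52; limma, BH adjusted p = 0.156), Sdhaf4 (-0.61; 0.182) and Lipt1 (-0.23; 0.435).

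**Figure D4:**
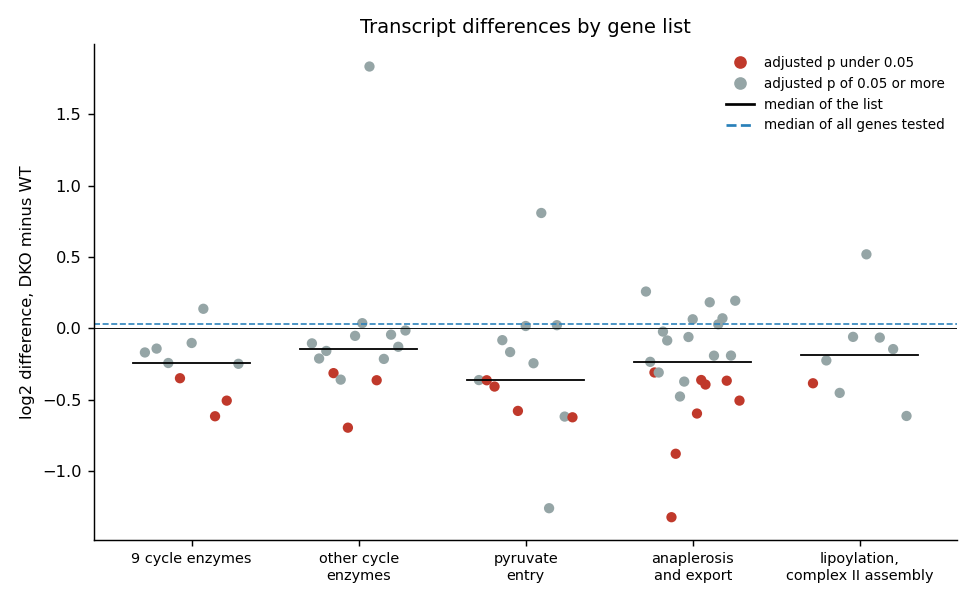
Log2 difference, DKO minus WT, of each tested gene in 5 lists, with the median of each list as a black line and the median of all genes tested as a dashed line; red marks an adjusted p under 0.05. The list medians run from -0.36 for pyruvate entry to -0.14 for the other cycle enzymes, all below the median of all genes, 0.03.

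In bulk heart RNA, fewer cells of a type and less RNA per cell cannot be told apart. The 10 cardiomyocyte markers summed to 75916 to 77290 TPM in DKO and 75426 to 81449 TPM in WT, with 2 lower (Tnni3 and Ryr2) and 0 higher (limma; 4 and 2 at an unadjusted p under 0.05). Of the 10, 6 had negative and 4 positive log2 differences, and Tnni3 and Ryr2 stood at 70.8% and 70.2% of their WT means. Their defining members Myh6, Tnnt2 and Actn2 were abundant in all 6 libraries, but differed in direction. Mean TPM in DKO and WT was 10491.5 and 12330 for Myh6, 7420 and 7850 for Tnnt2, and 1674 and 1430 for Actn2. None of these was called (limma, BH adjusted p = 0.123, 0.536 and 0.0754). Fibroblast markers summed to 1279 to 1552 TPM in DKO and 917 to 964 TPM in WT (5 of 8 higher). Those 5 were Col1a1, Col1a2, Col3a1, Lum and Postn. The log2 differences of Dcn (0.13), Pdgfra (0.08) and Tcf21 (0.50) were positive but did not pass the threshold. Macrophage markers summed to 413 to 560 TPM in DKO and 188 to 291 TPM in WT (5 of 8 higher). Endothelial markers summed to 1625 to 1681 TPM in DKO and 1747 to 2192 TPM in WT (2 of 8 lower), and smooth muscle markers to 305 to 440.4 TPM in DKO and 235 to 291 TPM in WT (1 of 5 higher, 1 lower). The higher smooth muscle sum lay in Acta2, with a mean of 228 TPM in DKO and 66.5 TPM in WT, while the other 4, of which Tagln was called, had negative log2 differences, and the list's median was -0.46. Erythroid markers summed to 1781 to 6764 TPM in DKO and 6045 to 38462 TPM in WT (1 of 6 lower). The 1 called was Slc4a1, with a mean of 0.42 TPM in DKO and 2.61 TPM in WT, a small part of the sum. At an unadjusted p under 0.05 (limma) all 6 erythroid markers were lower. The part of these cell types in the enzyme differences was not tested. Skeletal muscle Myh4 was listed at 0 in all DKO libraries and at 1.70 TPM or less in WT, and brown fat Ucp1 at 0 in every library but WT 6 (1.15 TPM). The skeletal muscle list, which is mostly Ckm and Acta1, summed to 2192 to 2330.2 TPM in DKO and 2569 to 3468 TPM in WT (1 of 3 tested lower). Adipocyte markers summed to 17.4 to 28.2 TPM in DKO and 31.4 to 45.7 TPM in WT (1 of 3 tested lower). That sum lay mostly in Cidea, the 1 called, with a mean of 19.2 TPM in DKO and 36.7 TPM in WT. Adipoq (log2 difference 0.36) and Plin1 (-0.49) differed in direction and were not called. Neuronal and glial markers summed to 6.89 to 12.3 TPM in DKO and 8.28 to 9.66 TPM in WT (0 of 3 called, and 0 at an unadjusted p under 0.05, limma).

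Mbnl1 had 102, 108 and 107 TPM in DKO 7, 8 and 9 and 161, 160 and 145 TPM in WT 4, 5 and 6, and Mbnl2 had 227, 239.7 and 245 TPM in DKO and 189, 168 and 149 TPM in WT. A gene-level sum includes transcript outside the deleted part, and Mbnl2 of cells without Cre, so neither checks the deletion, and directions rest on the labels.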

How the data were processed

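The authors deposited 1 table of TPM values, 1 per gene and library, unpooled, with library totals from 999963 to 999991. The submitters' processing notes name bcl2fastq, kallisto 0.44.0 and the mm10 build. Neither the annotation nor how transcripts were summed into genes is stated in the sources used here. TPM keeps no depth, so depth and counting error are unknown, and reads shared by paralogs are split by estimate. Per the labels, libraries were paired-end, with 2 reads of 75 bases per fragment. The highest correlation over genes between a pair of libraries was 0.958, within WT. Pairs within DKO had 0.951 to 0.956, pairs within WT 0.941 to 0.958 and pairs across the groups 0.920 to 0.944. The DKO library with the WT genotype tag thus correlated more with each other DKO library than with any WT library. Groups follow titles. P-values measure the spread between these libraries, which the labels do not call separate animals.

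The 14541 genes that reached 1 TPM in 3 or more libraries were fitted with limma 3.58.1 (eBayes with trend; R 4.3.3) on log2(TPM + 1), BH adjusted over all of them. This scale understates changes of low genes. Fits were tested on simulated data. Ratios were compared with exact permutation tests (scipy 1.17.1). Motifs were sought in RefSeq promoters of GRCm38.p6, from which gene positions also come. Members and lists were chosen with earlier results of these data known. Named were all 9 members, all other cycle enzymes, the 4 genes of each other list with the smallest p, the 5 nearest genes (no predicted genes) and Mbnl1 and Mbnl2; marker lists are given by their sums and defining members. Some genes that this rule gave are not reported here. Alternatives varied the pseudocount (0.1), the filter (none, or 5 TPM), the scaling (median-ratio, quantile, or without short, structural and haemoglobin RNA) and the variance model (no trend, or array weights). Others counted replicate 7 as WT, added a term for Xist (above 10 TPM), kept the libraries with Y-linked transcripts, or left out each library.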

Additional observations from a re-analysis of the deposited data

How the results depend on the processing

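Of 153 alternative values for the 9 members, 140 kept direction and side of the threshold. Among them were all under another pseudocount, filter, variance model or rescaling without short, structural and haemoglobin RNA, and all with 1 library left out. For the 6 members not called, staying uncalled counts as kept. A call was lost in 9 values, all of Ogdh, Sucla2 and Idh3b. Without a trend in the variance model Idh3b passed only narrowly (limma, BH adjusted p = 0.049). Without 1 library 3 members were called lower in each fit, and 622 to 877 genes in all, against 1560 with 6 libraries. With replicate 7 counted as WT 1 gene and 0 members were called; the log2 difference was -0.36 for Ogdh, -0.32 for Sucla2 and -0.25 for Idh3b, and turned to 0.0076 for Idh3g, 0.016 for Fh1 and 0.032 for Lipt1. With a term for Xist 92 genes and 0 members were called (Ogdh -0.57, Sucla2 -0.37, Idh3b -0.34). With the 4 libraries that have Y-linked transcripts, DKO 9 stood alone for DKO. The 3 differences were then the same by construction (-0.57, -0.37 and -0.34), since both fits set DKO 9 against the WT mean. Suclg1 passed with median-ratio scaling (-0.28) and quantile normalization (-0.32). Of 306 alternative values for 18 other named genes, 205 kept direction and side of the threshold, 97 lost a call, 3 gained one (Dlst) and 1 turned (Lipt1). Of the 14 of these genes that were called, Mbnl1 and Mbnl2 among them, all lost the call with a term for Xist, with Y-linked libraries alone and with replicate 7 counted as WT. Of the 14, 8 lost it without a trend in the variance model (limma, BH adjusted p from 0.0526 to 0.0887), 3 without a filter (Mpc1 0.0529, Mpc2 0.0532 and Lias 0.0542), Mpc1 with quantile normalization (0.0515), and 3 to 9 in each fit without 1 library. Of 112 alternative values for the ratios 105 moved by less than the within-group SD of that log2 ratio. This SD was 2.32 for Ogdh to Ogdhl, so its values did not count as moved although they ran from -3.81 to -0.82. With Y-linked libraries alone the log2 ratio difference was -0.33 for Idh3b to Idh3g (-0.25 with 6 libraries), -0.16 for Sucla2 to Suclg1 (-0.26), -0.32 for Sucla2 to Suclg2 (-0.49), 0.39 for Mdh2 to Cs (0.31) and 0.15 for Fh1 to Cs (0.03); with replicate 7 as WT it was -0.18 for Ogdh to Dld (-0.30) and 0.23 for Mdh2 to Cs. The cause of these moves was not tested. Called genes split into 946 higher and 614 lower with the deposited scaling, 906 and 845 with median-ratio scaling and 880 and 817 with quantile normalization. No paired analysis was possible because DKO and WT share no replicate numbers.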

Other observations

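The following values were chosen after they were seen. Ogdhl, the Ogdh paralog, varied more between libraries of 1 group than any of the 9 members, with 131, 62.5 and 162 TPM in DKO 7, 8 and 9 and 139, 67.3 and 2.15 TPM in WT 4, 5 and 6. WT 6 had almost none of it, while its Ogdh value, 842 TPM, was close to the other WT libraries.

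Pdk4, the kinase that inactivates pyruvate dehydrogenase when fatty acids are burned, had 417, 207 and 342 TPM in DKO 7, 8 and 9 and 969, 366 and 1155 TPM in WT 4, 5 and 6. The groups overlapped at WT 5, and the log2 difference of -1.26 (SE 0.46) did not pass (limma, BH adjusted p = 0.133).

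Among the 1325 tested genes averaging at least 100 TPM, 0 had a smaller within-group SD than Idh3b, and the median SD of these abundant genes was 0.101 on the log2(TPM + 1) scale.

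The beta-globin Hbb-bs had 1690, 1.15 and 0.892 TPM in DKO 7, 8 and 9 and 1436, 14182 and 5293 TPM in WT 4, 5 and 6, while alpha-globin Hba-a1 had 1115 TPM or more in every library. The beta-globin Hbb-bt had 216, 0 and 2.52 TPM in DKO and 307, 2245 and 896 TPM in WT. DKO 8 and DKO 9 thus differed from DKO 7 in both beta-globins. The mean log2 value of the 9 members, relative to the WT mean, was -0.34 in DKO 7, -0.22 in DKO 8 and -0.18 in DKO 9. Whether the globin difference is related to the enzyme differences was not tested.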
